A study of Bos taurus with 13 samples.

Results

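Bovine ileum was compared here with 7 other bovine tissues on a spotted mammary cDNA microarray, a glass array whose probes are cDNA clones of mammary origin. The comparison used 8 of the 13 arrays of the series. On each of the 8, RNA of 1 tissue shared the slide with total RNA of a common reference, a cell line that the labels name BovMac. The tissues were ileum, adipose, adrenal, liver, lymph, spleen and thymus tissue and the mammary gland of a pre-pubertal Holstein heifer of 136 kg. For the other tissues the labels give neither age nor sex nor anatomical site, and they do not say whether the tissues came from the same animal. Members were taken by sample label, and 695 of the 706 genes named on the array had a value on all 8 arrays. For every gene the ileum value was set against the mean of the other 7 arrays, so that the shared reference cancels in the difference. Each tissue had 1 array. No test between tissues was therefore possible, and a permutation of the 8 tissue labels could give no p below 0.125. Errors given with ± are the SD over the spots of a gene on the ileum array. This SD measures printing and scanning of 1 hybridisation and not variation between animals. For a gene with several clones it also holds the difference between clones.

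The ileum is the last part of the small intestine, where a single layer of epithelium absorbs nutrients over connective tissue, smooth muscle and large lymphoid aggregates, the Peyer's patches. Class II histocompatibility molecules carry peptides of taken-up proteins to helper T cells. They are made by B cells, dendritic cells and macrophages, and in the intestine by epithelial cells as well. Class I molecules carry peptides of proteins made inside the cell and are present on nearly all nucleated cells. EPCAM is an adhesion protein of epithelial cells. In a whole tissue, fewer cells of a type and less RNA per cell cannot be told apart.

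The deposited value of a spot is the log ratio of its channels. Neither the base of the logarithm nor the order of the channels is given in the sources used here. Values are therefore in log units, where 1 unit is 2-fold if the base is 2 and 2.72-fold if it is the natural log, and signs are kept as deposited. "Positive" and "negative" below name the sides of that ratio and do not say whether a gene was more or less abundant in ileum. Across the 695 genes the ileum array correlated with the other arrays at a Pearson r between -0.04 (adrenal) and 0.37 (spleen), with 0.33 for lymph tissue and 0.26 for mammary gland. All of these arrays share the reference RNA. The labels do not say that the ileum array alone ran in the opposite order. If it did, every gene counted below would lie on the other side. The median differences would then be -0.47 for epithelial, 0.43 for chaperone and 0.47 for cell cycle genes instead of 0.48, -0.47 and -0.25. A gene was counted when ileum lay at least 1 log unit from the mean of the other tissues, and it stood apart when ileum lay at least 1 unit beyond the most extreme of the 7.

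The ileum array had the widest spread of the tissues. Its median absolute deviation (MAD) over spots was 0.247 log units, against 0.0953 to 0.175 on the other 7, and 6.13% of its genes lay at least 1 unit from 0, against 0% to 0.851%. The same share was 0.853% on reference against reference array 1 and 3.96% on array 2, for which the labels give reference RNA in both channels (spelled BovMav once) and say that GAPDH was not added. Spots of the same clone were ordered alike on the ileum array, with a mean rank correlation (Spearman) of 0.83, near the top of the range on the other tissue arrays (0.53 to 0.85). On reference against reference arrays 1 and 2 this correlation was 0.57 and 0.12, and the MAD was 0.160 and 0.273. Single values on reference against reference array 2 therefore rest on spots that agreed little. In a run of 144 unannotated spots, 69.4% of the ileum values and 67.4% of the mammary values were exactly 0, against 98.6% to 100% on the other 6 tissue arrays. The differences between the tissue arrays move with the tissue labels, and their part in the results was not tested. Differences after scaling the 8 arrays to the same MAD are given below for each gene past 1 unit and for the main lists.

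Ileum lay at least 1 unit from the mean of the other tissues for 33 of 695 genes (4.75%), 19 on the positive side (2.73%) and 14 on the negative side (2.01%). The positive genes included class II and class I histocompatibility genes, EPCAM and several nuclear regulators, and the negative genes included proteins of the actin skeleton, adhesion and matrix. On the ileum array the spot SD of the positive genes had a median of 0.0979 and that of the negative genes 0.0665. In 18 of the 19 and 13 of the 14, every ileum spot lay beyond the gene values of all 7 other tissues. The exceptions were ANXA8L1 and LOC100299281, whose spots disagreed. The counting rule used the same 7 arrays, so counted genes tend to lie beyond them by selection, and this is no separate support. In all, 19 genes (2.73%) stood apart from the most extreme of the other tissues by 1 unit or more, 14 on the positive side (2.01%) and 5 on the negative side (0.719%). After scaling to the same MAD the count past 1 unit was 11 genes (1.58%), 8 positive (1.15%) and 3 negative (0.432%), all of them among the 33.

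**Figure D1:**
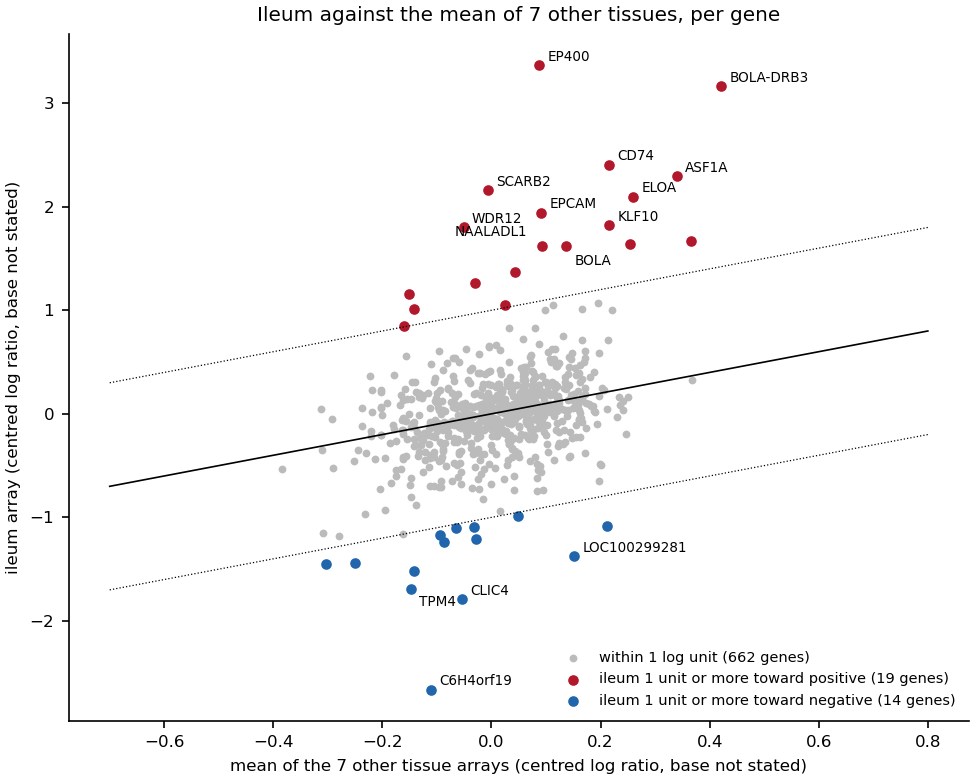
Each point is 1 of 695 genes, with the mean of the 7 other tissue arrays on the x axis and the ileum array on the y axis, both as centred log ratios of unstated base. The solid line marks equal values and the dotted lines 1 log unit either way. The ileum values run from -2.66 for C6H4orf19 to 3.37 for EP400, and 33 genes lie past the dotted lines.

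Both measured class II genes lay far on the positive side. BOLA-DRB3 encodes the beta chain of a bovine class II molecule. Its ileum spots read 3.38, 3.15 and 2.97, against 1.04 in spleen, 1.03 in lymph tissue, 0.42 in mammary gland, 0.28 in thymus, 0.13 in adipose, 0.05 in adrenal and 0.01 in liver. Ileum was thus above every other tissue and apart from spleen, the next, by 2.12 units, and the difference from the mean of the 7 was 2.75 (1.61 after scaling). CD74, the invariant chain that escorts class II molecules to the compartment where peptides are loaded, had ileum spots at 2.23, 2.46 and 2.53. The other tissues lay between 0.08 in thymus and 0.48 in lymph tissue, with a median of 0.15, so that no tissue overlapped ileum and the difference was 2.19 (1.30 after scaling). For both genes the ileum spots differed among themselves by far less than ileum differed from the next tissue. Spleen and lymph tissue were nearly equal for BOLA-DRB3 but not for CD74, at 0.19 and 0.48. On the reference against reference arrays BOLA-DRB3 lay at -0.33 and 0.18 and CD74 at 0.09 and -0.19.

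Of 3 measured class I genes 2 were above every other tissue in ileum, where 23.7% of all genes were. BOLA, a class I heavy chain, stood at 1.62 ± 0.08 (SD, 3 spots), against 0.44 in mammary gland, the next tissue, and -0.12 in adrenal, the lowest. Its difference was 1.48 (0.90 after scaling). TAP1, which moves peptides into the endoplasmic reticulum for class I loading, stood at 0.83 ± 0.02 against a highest other value of 0.28 in thymus, a difference of 0.75 (0.47 after scaling). PDIA3, a disulfide isomerase of the loading complex and of general folding, lay on the negative side at -0.44 ± 0.05, below all 7 other tissues. The genes of antigen presentation on this array thus did not all lie on 1 side.

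Among epithelial genes EPCAM had the only difference past 1 unit. Its ileum spots read 1.84, 1.90 and 2.09, while the other tissues ran from 0.00 in thymus to 0.21 in lymph tissue with a median of 0.07. The mammary gland, which also holds epithelium, was at 0.05. The difference was 1.85 (1.14 after scaling). On reference against reference array 2 EPCAM lay at 1.51, on the same side as in ileum, and on array 1 at -0.05. Of the 8 measured epithelial genes 6 lay on the positive side and 5 were above all other tissues. Besides EPCAM the 5 were MAP7, ST14, ELF5 and KRT7, whose ileum spots spread more widely, as given below. The median difference of the 8 was 0.48 (0.33 after scaling). With genes past 1 unit on the reference against reference arrays left out, 7 genes remained, at a median of 0.30. Over all genes 49.1% were positive, 23.7% were above all others and the median was -0.0045. After scaling, 5 of the 8 were above all others, against 12.2% of all genes.

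The other epithelial genes were less uniform. MAP7, a microtubule-binding protein of epithelia, stood at 1.07 ± 0.36 in ileum and at 0.52 in the next tissue, thymus. ST14, the epithelial membrane protease matriptase, stood at 1.00 ± 1.16, an SD larger than its difference of 0.90. ELF5, a transcription factor of mammary and other glandular epithelium, had 3 clone groups with ileum values of 0.02, 0.29 and 1.86, so that its mean of 0.72 ± 0.88 (9 spots) describes no single probe. KRT7, a keratin of glandular epithelium, lay at 0.06 ± 0.43, MUC1 at 0.15 ± 0.17, PLET1 at -0.01 ± 0.30 and CTNNB1, the catenin that links cadherins to actin, at -0.41 ± 0.14. DMBT1, a mucosal glycoprotein that binds microbes, was outside the lists and was picked out after its values were seen, with 1.05 ± 0.01 in ileum, at most 0.23 elsewhere and a scaled difference of 0.63. NAALADL1, a peptidase of the intestine, stood at 1.62 ± 0.07, against values from -0.26 in adrenal to 0.32 in liver, and its difference was 1.52 (0.94 after scaling).

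All 4 measured genes of the leukocyte list, CD47 among them, were above every other tissue in ileum, where 23.7% of all genes were. Their median difference was 0.67 (0.43 after scaling). After scaling RAC2 and LCP1 remained so, against 12.2% of all genes, while PTPRC and CD47 lay inside the range of the others. RAC2, a small GTPase of blood cells, stood at 0.85 ± 0.09, against 0.06 in mammary gland, 0.00 in adrenal and -0.47 in spleen, and its scaled difference was 0.71. PTPRC, the leukocyte common antigen CD45, stood at 0.50 ± 0.03, against 0.28 in adrenal, 0.06 in thymus, -0.09 in spleen and -0.10 in lymph tissue. The tissues richest in leukocytes were thus not the next after ileum for either gene. CD47, a surface protein that restrains phagocytosis, stood at 1.00 ± 0.05 with thymus next at 0.77, and it lay at -1.14 on reference against reference array 1. LCP1, the leukocyte plastin, was at 0.10 ± 0.11 with adipose next at 0.01. Markers that would define B cells, T cells or enterocytes were not measured (0 of 15, 0 of 12 and 0 of 19 listed genes), and of 14 macrophage genes only CSF1 was, at -0.02 ± 0.12 in ileum. The labelled tissue could therefore not be checked against its own defining markers.

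The largest difference of a named gene, with signs as deposited, belonged to EP400, the ATPase of a chromatin remodelling complex. With the ileum array turned it came after BOLA-DRB3 (-3.46 and -3.59). Its ileum spots read 3.65, 3.61 and 2.84, against a median of 0.05 in the other tissues, a lowest value of -0.07 in liver and a highest of 0.32 in mammary gland. The difference was 3.28 (2.06 after scaling). On the reference against reference arrays EP400 lay at 0.51 and 1.33, on the same side as in ileum and by less. The value of 1.33 is from array 2, where spots of the same clone agreed little. The 3 other chromatin genes lay within 0.17 units of the other tissues' mean, CHD4 at -0.03, SIRT7 at 0.15 and CXXC1 at -0.17 as differences.

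Several other single genes among the 19 lay on the positive side with tightly grouped spots. ASF1A, a chaperone that hands histones to chromatin assembly, stood at 2.29 ± 0.07, and mammary gland was next at 1.10. ELOA, the elongin A subunit that speeds transcription, stood at 2.10 ± 0.06, and WDR12, needed to build the large ribosomal subunit, at 1.80 ± 0.09. KLF10, a zinc finger factor induced by transforming growth factor beta, stood at 1.83 ± 0.05, ABCE1, which splits ribosomes after translation, at 1.64 ± 0.12, and HNRNPK, an RNA-binding protein, at 1.15 ± 0.02. The highest of the other tissues was mammary gland for ASF1A, ELOA, WDR12 and KLF10, spleen for ABCE1 (0.81) and liver for HNRNPK (0.09). After scaling the differences were 0.95 for KLF10, 0.77 for ABCE1 and 0.90 for HNRNPK. Over all 19 positive genes the next tissue was mammary gland for 9, spleen for 4, and lymph, liver and adrenal tissue for 2 each. How often each tissue is the highest over all genes was not counted, and the arrays differ in spread. These counts therefore show no likeness of a tissue to ileum. Without the mammary array the differences of ASF1A, ELOA and KLF10 were 2.08, 1.91 and 1.69, against 1.95, 1.84 and 1.61 with it.

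Of the remaining positive genes, SCARB2, a lysosomal membrane protein that delivers an enzyme to lysosomes, had ileum spots at 2.30, 1.47 and 2.71 and a difference of 2.17 (1.41 after scaling). The other 6 lysosomal genes measured had differences from -0.08 for LAMP2 to 0.37 for ASAH1, so that SCARB2 alone of 7 lay past 1 unit. FNTB, a subunit of the farnesyltransferase that anchors proteins to membranes, stood at 1.37 ± 0.14 and ANXA8L1, an annexin, at 1.67 ± 0.94. Their scaled differences were 0.83 and 0.66. UFL1, the ligase of the ubiquitin-like modifier UFM1, at 1.26 ± 0.16, and NET1, a guanine nucleotide exchange factor, at 1.01 ± 0.10, complete the 19 and fall outside the naming rule, with scaled differences of 0.84 and 0.80. Just inside the limit of 1 unit were RAC2 (1.01) and DMBT1 (1.03) as differences, and just outside it VAPA, a membrane contact protein of the endoplasmic reticulum, at 0.93.

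**Figure D2:**
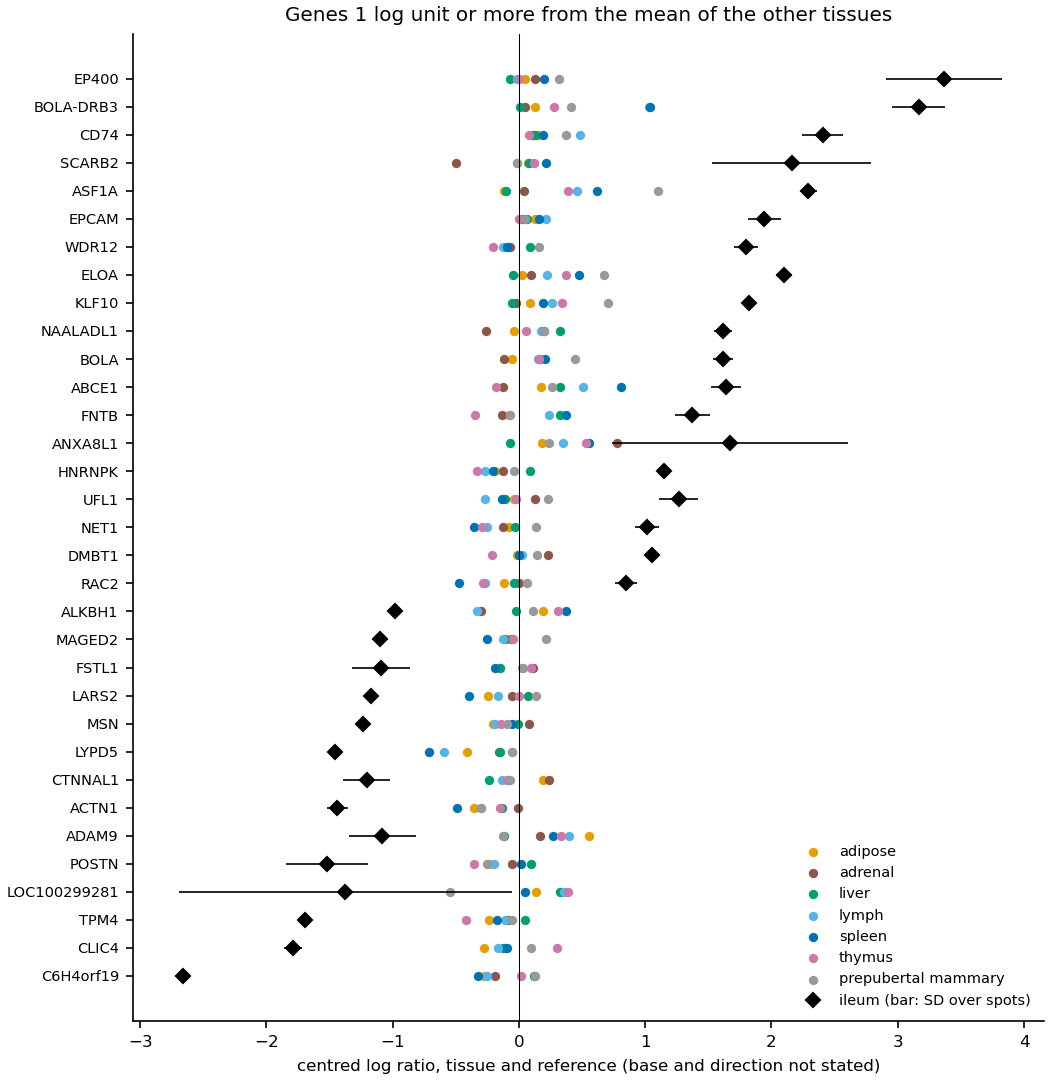
The 33 genes are listed in order of their difference from the mean of the other tissues, with the centred log ratio on the x axis. Black diamonds are the ileum array with the SD over spots, and coloured points are the other 7 arrays. Ileum lies outside their range for all 33, which the counting rule favours. The SD is above 0.5 only for SCARB2, ANXA8L1 and LOC100299281.

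On the negative side the lowest gene was C6H4orf19, with ileum spots at -2.677, -2.596 and -2.717. The other tissues lay between -0.32 in spleen and 0.13 in mammary gland, and the difference was -2.55 (-1.57 after scaling). CLIC4, an intracellular chloride channel protein found in endothelium and in activated fibroblasts, had ileum spots at -1.71, -1.83 and -1.83, against values from -0.28 in adipose to 0.30 in thymus. Its difference was -1.73 (-1.05 after scaling). LOC100299281 averaged -1.38 with spots at -0.10, -1.29 and -2.74, and its SD of 1.32 was nearly as large as its difference of -1.53.

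Among 13 measured genes of actin and smooth muscle, 3 lay past 1 unit on the negative side, where 2.01% of all genes did, and 0 on the positive side. After scaling none of the 3 was past 1 unit, with TPM4 at -0.92, MSN at -0.69 and ACTN1 at -0.63. TPM4, a tropomyosin of non-muscle cells, stood at -1.69 ± 0.06, with the lowest other tissue, thymus, at -0.42. ACTN1, the alpha-actinin that bundles filaments at adhesions, stood at -1.44 ± 0.08, with spleen lowest of the others at -0.49. MSN, moesin, which ties actin to the membrane, stood at -1.23 ± 0.05, with adipose lowest of the others at -0.20. These 3 stood below every other tissue, as did TPM1 (-0.72), CAPZA1 (-0.56) and CNN3 (-0.18), for 6 of 13 genes, against 24.5% of all genes. After scaling the count was 5 of 13, against 17.1% of all genes. The list's median difference was -0.09 (-0.25 after scaling).

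The measured smooth muscle markers split. TPM1, a tropomyosin, lay on the negative side at -0.72, below every other tissue, while ACTG2 and MYH11 did not share this side. ACTG2, the enteric smooth muscle actin, lay at 0.04 ± 0.02 in ileum, inside the range of the other tissues (-0.26 to 0.06), and MYH11, smooth muscle myosin, at 0.28 ± 0.03, just under spleen at 0.30. ACTB, beta-actin, which has 150 spots and often serves as a loading control, was at 0.21 ± 0.18 in ileum and at or below -0.01 in every other tissue, down to -0.38 in adipose. Of the other loading controls, HPRT1 was at 0.01 ± 0.10 in ileum and YWHAZ at -0.65 ± 0.13, below all other tissues.

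Of 14 matrix genes only POSTN lay past 1 unit. POSTN encodes periostin, a matrix protein of fibroblasts. Its 6 spots came from a pair of clones and agreed in side, at -1.82, -1.81 and -1.78 for one and -1.14, -1.18 and -1.37 for the other, against values between -0.36 in thymus and 0.10 in liver. The difference was -1.38 (-0.82 after scaling). COL5A2, a fibrillar collagen, at -0.68 ± 0.09, COL15A1 at -0.61 and COL6A1 at -0.33 were below all others, as was POSTN. The COL15A1 mean joins clones at -1.23 and 0.01 and describes neither. TNC, tenascin, at 0.23 ± 0.23, ECM2 at 0.33 ± 0.22, NID1, a basement membrane protein, at 0.24 ± 0.07 and VCAN at 0.13 were above all others. Thus 4 of the 14 were below all others and 4 above, near the 24.5% and 23.7% of all genes. In all 8 of the 14 lay on the positive side and 6 on the negative, with a median difference of 0.01. FSTL1, a secreted glycoprotein outside the list, had 6 spots at -1.09 ± 0.23, with both of its clones past -1 unit in difference (-1.11 and -1.01), and a scaled difference of -0.65.

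Endothelial and caveolar genes split. CAV1, the coat protein of caveolae, stood at -0.82 ± 0.22 (6 spots), against values from -0.13 to 0.07 elsewhere. CD300LG, an endothelial receptor, stood at -0.29 ± 0.02, also below all others. EMCN, a sialomucin of endothelium, at 0.39 ± 0.07, and the fatty acid transporter CD36, at 0.53 ± 0.10, were above all others. With CLIC4, 3 of the 5 measured genes were below all others and 2 above, against 24.5% and 23.7% of all genes. After scaling the counts were 3 and 2 as well, against 17.1% and 12.2% of all genes.

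The remaining negative genes belonged to none of the lists. ADAM9, a membrane metalloproteinase, stood at -1.08 ± 0.27, but it also lay at -1.12 and -0.997 on the reference against reference arrays. CTNNAL1, a relative of alpha-catenin, stood at -1.20 ± 0.19, LYPD5 at -1.45 ± 0.05, LARS2, which charges mitochondrial leucine tRNA, at -1.17 ± 0.04, MAGED2 at -1.10 ± 0.02 and ALKBH1, a nucleic acid demethylase, at -0.98 ± 0.05. LYPD5 was also negative in every other tissue, down to -0.71 in spleen. After scaling the differences were -0.95 for ADAM9, -0.76 for CTNNAL1, -0.58 for LYPD5, -0.64 for LARS2, -0.63 for MAGED2 and -0.67 for ALKBH1, all under 1 unit in size. Over the 14 negative genes the lowest other tissue was spleen for 6, and how often spleen is the lowest over all genes was not counted.

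All 8 measured chaperone and folding genes had a negative difference, with a median of -0.47 (-0.30 after scaling), and 7 of them were below every other tissue, against 24.5% of all genes. After scaling 6 of the 8 were, against 17.1% of all genes. With genes past 1 unit on the reference against reference arrays left out, 7 genes remained, at a median of -0.42. HSP90B1, the HSP90 of the endoplasmic reticulum, stood at -1.16 ± 0.06, with mammary gland lowest of the others at -0.31, and its difference of -0.997 fell just short of 1 unit. HSPD1, the mitochondrial chaperonin, stood at -0.75 ± 0.07, against values from -0.04 in adipose to 0.22 in mammary gland. STIP1, a co-chaperone that joins HSP70 and HSP90, was at -0.46 ± 0.16, HSPA9, the mitochondrial HSP70, at -0.50 ± 0.05 (6 spots) and CCT4 of the cytosolic chaperonin at -0.39 ± 0.10. Its partner CCT5, though counted among the 7, equalled the lowest other tissue to 2 decimals, at -0.02 ± 0.02. TCP1 was at 0.02 ± 0.77, inside the range of the other tissues.

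The 9 measured cell cycle genes also all had a negative difference, with a median of -0.25 (-0.16 after scaling), and 6 were below every other tissue, against 24.5% of all genes. After scaling 4 of the 9 were, against 17.1% of all genes. PCNA, the sliding clamp of DNA replication, stood at -0.48 ± 0.02, where the other tissues lay between -0.07 and 0.09. MCM7 of the replicative helicase stood at -0.69 ± 0.16 (6 spots) with spleen lowest of the others at -0.27. PRC1, a cytokinesis protein, stood at -0.73 ± 0.10, and part of its difference of -0.83 came from mammary gland at 1.01. KIF22, a chromosome-binding kinesin, was at -0.37 ± 0.17, and MCM3 at -0.20 ± 0.17 and BIRC5, survivin, at -0.09 ± 0.08 were close to the lowest other tissue. MCM6, BUB3 and CETN2 lay inside the range of the others. None of the 9 was past 1 unit, and BUB3 (-0.03) and CETN2 (-0.0046) had almost no difference left after scaling.

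**Figure D3:**
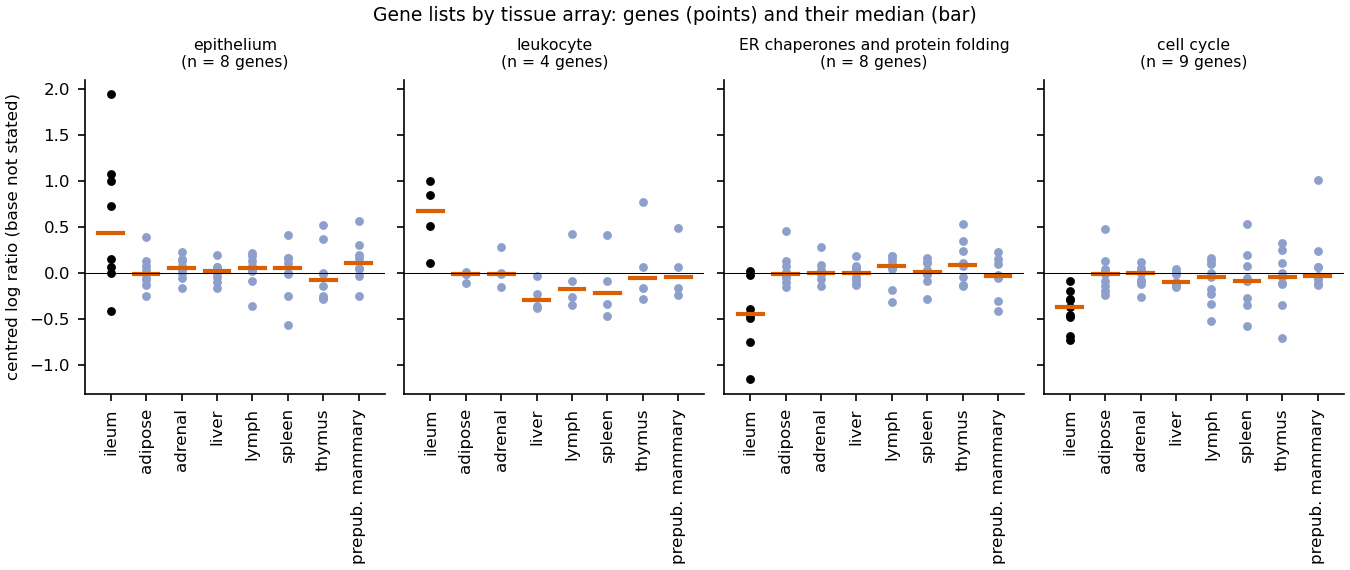
Each panel shows the measured genes of a list (points) and their median (bar) on each of the 8 tissue arrays, as centred log ratios. The ileum median is 0.43 for the 8 epithelial genes, 0.68 for the 4 genes of the leukocyte list, -0.45 for the 8 chaperone genes and -0.37 for the 9 cell cycle genes. Each is the most extreme of the 8 arrays.

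Other groups had median differences of at most 0.20 units in size. The 12 genes of the secretory pathway had a median difference of -0.06, the 5 of mitochondrial respiration -0.07, the 8 of innate defence 0.20 and the 8 milk protein genes 0.10. OGDH, an enzyme of the citric acid cycle, was at 0.75 ± 0.13 in ileum, above all others, and IMMT, which shapes mitochondrial cristae, at -0.53 ± 0.03, below all others. Of the 8 milk protein genes 7 lay on the positive side, against 49.1% of all genes, and 2 were above all others, against 23.7%. CSN2, the beta-casein gene, read 0.49 ± 0.75 (9 spots) in ileum and 0.42 in mammary gland. In the innate defence list C1R, a complement protease, was at 0.62 ± 0.24 and TBK1, a kinase of interferon induction, at 0.34 ± 0.07. With IL6 at 0.21 and IRAK1 at 0.17, 4 of the 8 were above all others, against 23.7% of all genes. After scaling 3 of the 8 innate defence genes were, against 12.2% of all genes. EIF4G1, the scaffold of translation initiation, stood at -1.15 ± 0.35 (6 spots), with lymph tissue lowest of the others at -0.60, and lay at -0.63 and -1.02 on the reference against reference arrays.

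**Figure D4:**
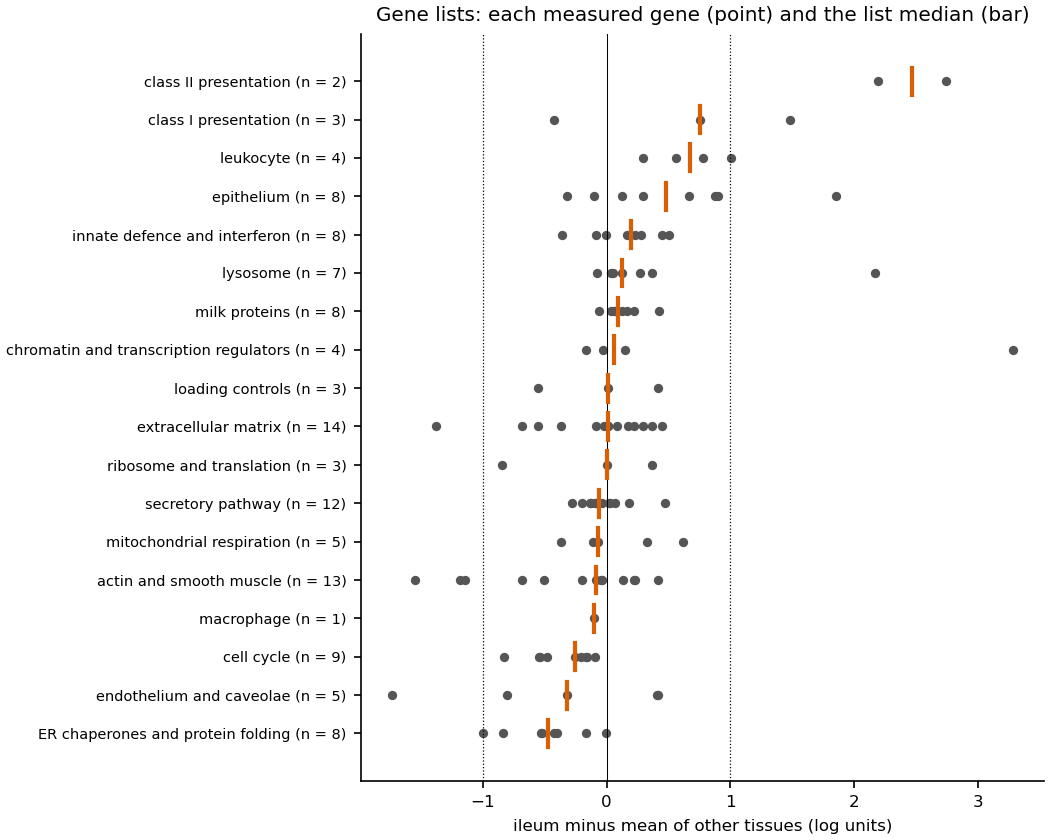
Points are the measured genes of each list by their difference between ileum and the mean of the other tissues, bars are list medians, and dotted lines mark 1 log unit. Medians run from -0.47 for the 8 chaperone genes to 2.47 for the 2 class II genes, while single genes such as EP400 and SCARB2 lie far from lists whose medians are near 0.

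By the mean absolute distance over the 8 arrays, the genes most like BOLA-DRB3 were CD74 (0.32 units), EP400 (0.34), ELOA (0.37), ASF1A (0.38) and ABCE1 (0.43). Those most like CD74 were EPCAM (0.17), ELOA (0.22), BOLA (0.22), KLF10 (0.22) and EP400 (0.24). Those most like EPCAM were SCARB2 (0.16), NAALADL1 (0.16), CD74 (0.17), KLF10 (0.17) and WDR12 (0.17). All of these genes lie far on the positive side on the ileum array, which is 1 of the 8 values behind each distance.

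Some genes had clones that disagreed within the ileum array, and for these the gene mean hides the spread. For CHTOP, which binds RNA for export, 3 spots averaged 1.58 ± 0.02 and 3 others 0.07 ± 0.03. For RAB3D, a GTPase of secretory granules, they averaged -1.49 ± 0.02 and 0.08 ± 0.05, and for the collagen gene COL15A1 -1.23 ± 0.07 and 0.01 ± 0.02. For TMED10, a cargo receptor of early secretory traffic, they averaged 1.16 ± 0.14 and -0.28 ± 0.04. The spots of each clone agreed closely, so the disagreement is between clones. These genes were chosen after their values were seen.

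Clone groups without a named gene were counted as well. A feature here is the spots of 1 clone or 1 sequence record. Of 1154 features 68 lay past 1 unit (5.89%), 30 positive (2.6%) and 38 negative (3.29%), and 26 of the 68 had no single named gene. The largest difference of all, 3.60, was that of an unannotated clone at 4.09 ± 0.34 in ileum and at most 1.07 in any other tissue. Of the 38 negative features 15 came from a run of 66 unannotated clones at the end of the array. What these clones hold is not given in the sources used here, and control spots among them cannot be told apart from genes. Of their spots 23.7% and 19.7% were exactly 0 on the reference against reference arrays, for which the labels leave out GAPDH, against 0% on the 8 tissue arrays. The 66 had ileum values from -1.39 to -0.42 and a median of -1.002, and 65 of them lay below all 7 other tissues. Spots of that run had medians between -0.29 and -0.01 on the other tissue arrays. Without the run 53 features were past 1 unit, 23 of them negative.

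Scaling the arrays to the same MAD brought the ileum array to the spread of the others. The 8 positive genes that stayed past 1 unit were EP400 (2.06), BOLA-DRB3 (1.61), SCARB2 (1.41), CD74 (1.30), WDR12 (1.21), ASF1A (1.15), EPCAM (1.14) and ELOA (1.08). The 3 negative ones were C6H4orf19 (-1.57), LOC100299281 (-1.08) and CLIC4 (-1.05). Of the 19 positive genes 18 were still above all other tissues after scaling, and all 14 negative genes were still below them. The genes had been counted for their distance from these same arrays before scaling, which favours this. Standing apart by 1 unit was then seen for 6 genes (0.863%), 5 positive (0.719%) and 1 negative (0.144%).

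**Figure D5:**
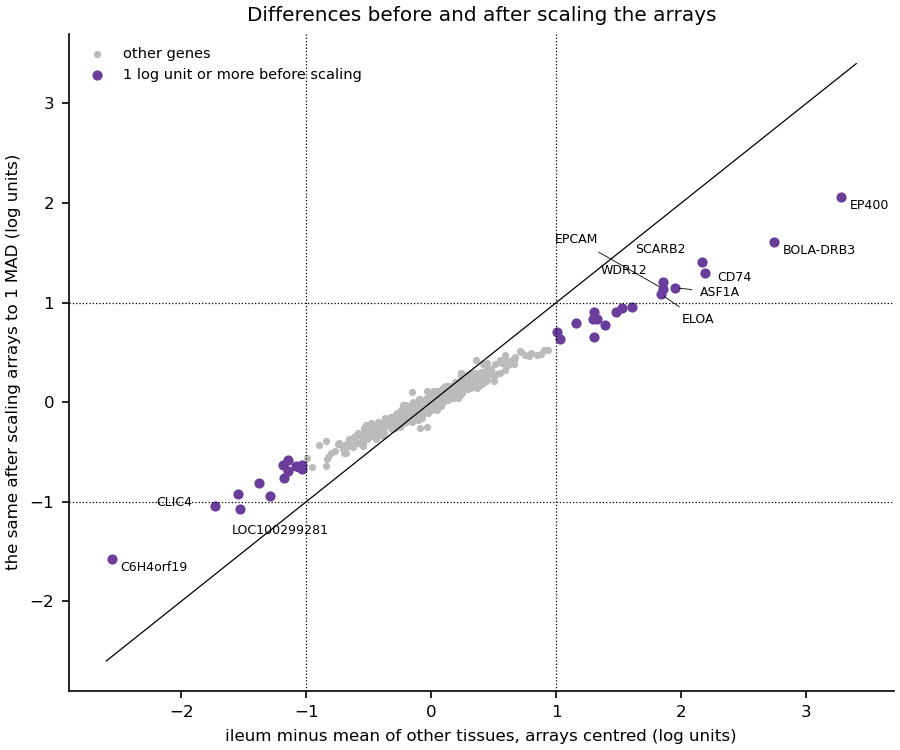
Each point is a gene, with its difference between ileum and the mean of the other tissues before scaling on the x axis and after scaling the arrays to 1 MAD on the y axis. Dotted lines mark 1 log unit; 11 of the 33 purple points remain past it on both axes, and BOLA-DRB3 moves from 2.75 to 1.61.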

How the data were processed

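The deposited table gives a log ratio per spot, treated here as a score because, per the labels and the table headers, its base is unknown. How the authors corrected background and normalized, and which channel they divided by the other, is not given in the sources used here. Each array has 3888 spots in 1296 clones of 3. The platform annotation gave a single gene to 2538 spots, more than 1 to 30 spots, and left 1320 unnamed. Of 706 symbols 703 matched RefSeq's gene table (ARS-UCD2.0) through their gene identifiers, and 0 changed. An exact 0 was taken as missing, arrays were centred on their median, and spots were averaged per gene with a minimum of 2 spots on an array; 11 genes without a value on all 8 tissue arrays were left out. MAD scaling divided each array by its MAD and multiplied by the median of the 8 MADs (0.158). The number of arrays, 1 per tissue, limits the precision, and no p-value was made. Genes were named by rule: the 15 most positive and 15 most negative differences, list genes past 1 unit and the markers. Of 21 gene lists 11 had 5 or more measured genes. Members, lists and limits were chosen with earlier results of these data known. The steps were tested on simulated data, using numpy 2.4.6, pandas 2.3.3 and matplotlib 3.10.9 under Python 3.11.15.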

Additional observations from a re-analysis of the deposited data

Results flagged for a closer look

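Of the 31 genes chosen by the naming rule, 10 also left 0 on the 2 arrays of lactating against pre-pubertal mammary gland, on the same side of both and further than on either reference against reference array. How many of all genes meet this rule was not counted, so 10 of 31 cannot be read as a trait of the ileum genes. The 2 mammary arrays are no part of the ileum comparison, and their direction is not settled either. Their MADs were 0.203 and 0.289. The labels give a heifer of 136 kg for the first and a heavier heifer for the second, so a mean over both is not over like animals. MSN, at -1.23 in ileum, had a mean of 1.05 on these 2 arrays (0.96 and 1.15). The other 9 of these 10 were on the negative side: ANXA8L1 at -0.86, BOLA at -0.66, ALKBH1 at -0.53, HSP90B1 at -0.44, KLF10 at -0.43, WDR12 at -0.40, FNTB at -0.33, LYPD5 at -0.27 and MAGED2 at -0.16. On the reference against reference arrays MSN lay at 0.07 and -0.20 and BOLA at 0.01 and 0.08, while LYPD5, at -0.24 and -0.19, was hardly closer to 0 there. Genes named outside the rule were not screened in this way, and some lay as far out or further, among them CD47 (2.47 and 3.64), PLET1 (2.93 and 3.65), CSN2 (0.76 and 0.79) and TAP1 (0.33 and 0.47) on the positive side and NET1 (-1.11 and -0.40) on the negative side.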

How the results depend on the processing

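The direction of the ratio, the width of the ileum array and the log base limit these results most. With arrays scaled to the same MAD, 11 genes, 16 features and 6 genes apart were counted, against 33, 68 and 19. The share of positive calls was then 72.7%, 68.8% and 83.3%, against 57.6%, 44.1% and 73.7%. It was 45.0%, 65.8% and 44.0% with the ileum sign turned and 49.1%, 33.1% and 52.8% at the natural log limit, so which side held more calls depends on these choices. If the base were the natural log, a 2-fold limit of 0.693 units would give 57 genes, 163 features and 36 genes apart, because the limit is lower. Leaving out each other tissue in turn gave 30 to 34 genes, 60 to 69 features and 19 to 21 genes apart. The other settings, apart from a turned sign, gave 30 to 35 genes and 17 to 20 genes apart. The named genes kept their sign in all settings but that one. If only the ileum array ran in the opposite order of channels, the counts would be 40 genes, 111 features and 25 genes apart, and 29 of the 33 genes would still be past 1 unit, on the other side by construction. The differences would then be -3.46 for EP400, -3.59 for BOLA-DRB3, -2.62 for CD74, -2.15 for SCARB2, -2.63 for ASF1A, -2.04 for EPCAM, -1.75 for WDR12, -2.36 for ELOA, -2.04 for KLF10, -1.71 for NAALADL1, -1.75 for BOLA, -1.89 for ABCE1, -1.42 for FNTB, -2.04 for ANXA8L1, -1.001 for HNRNPK and -0.69 for RAC2. They would be 2.77 for C6H4orf19, 1.84 for CLIC4, 1.84 for TPM4, 1.22 for LOC100299281, 1.66 for POSTN, 0.87 for ADAM9, 1.69 for ACTN1, 1.23 for CTNNAL1, 1.76 for LYPD5, 1.32 for MSN, 1.27 for LARS2, 1.13 for FSTL1, 1.17 for MAGED2 and 0.93 for ALKBH1. Averaging clones before genes and leaving out the last unannotated run were chosen after seeing the data. No paired analysis was possible because each tissue had 1 array.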
